A study of Mus musculus with 12 samples.

Results

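The 9 Hedgehog pathway genes examined here were the ligand *Shh*, its receptors and binding proteins *Ptch1*, *Hhip* and *Boc*, the signal transducer *Smo*, the inhibitor *Sufu* and the transcription factors *Gli1*, *Gli2* and *Gli3*. They were chosen by name, as core components of the pathway, with earlier results of these data known. They are 9 of the 21938 protein-coding genes of the annotation. Each gene was examined over a window from 5 kb upstream of its transcription start site (TSS) to its end. The windows ran from 15442 bp at *Shh* to 271792 bp at *Gli3*, with a median of 78849 bp against 22425 bp over all protein-coding genes, so that longer genes could hold more peaks. A second protein-coding gene reached into 2 of the windows, namely *Arhgap9* at *Gli1* and *Actr1a* at *Sufu*.

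The study asked which regions of the genome carry marks of active or repressed chromatin in immature cortical interneurons (CINs). Cortex of *Gad67-GFP* heterozygous mouse pups at postnatal day 2 was dissociated and sorted into GFP-positive cells (CINs) and GFP-negative cells (non-CINs, mainly projection neurons and glia). GFP is driven by the *Gad67* (*Gad1*) locus, which encodes an enzyme of GABA synthesis, so it marks GABAergic cells as a class. All samples came from untreated pups of this single genotype, and each one pooled cortices of 2 or more litters. Native ChIP was performed on chromatin that was cut with micrococcal nuclease and not cross-linked, with antibodies against H3K27ac, a mark of active promoters and enhancers, and H3K27me3, the mark laid down by Polycomb. Each mark was measured in 2 independent replicates of CINs and 2 of non-CINs, which gives 8 lists of called peaks. The 4 input samples entered only through the authors' peak calling. With 2 lists against 2, the smallest two-sided p that an exact permutation test can give is 0.333. No exact permutation test between the populations could therefore pass 0.05, and counts of genes are set beside the same share of all genes.

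The lists hold called peaks and no reads, so the depth behind each list is unknown, and no peak means only that none is listed in the files used here. The 4 H3K27ac lists held 46040 to 62505 peaks over 40.8 to 56.3 Mb, and the 4 H3K27me3 lists held 36662 to 45081 peaks over 34.5 to 49.8 Mb. Covered bp is the length of a window that lies under peaks. Where a pair of values is given for a population, it holds replicates 1 and 2 in that order. The strength of a peak is given as its fold-enrichment percentile, the percent of peaks of its own list with the same or a lower fold enrichment over input. The sorted populations are mixtures, and fewer cells that carry a mark cannot be told apart from less of the mark in each cell.

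Hedgehog ligands are lipid-modified secreted proteins that act as morphogens. In the absence of ligand, PTCH1 holds SMO inactive, and SUFU and the cilium keep GLI proteins in check, with GLI3 cut to a repressor form. Ligand binding to PTCH1, helped by co-receptors such as BOC, frees SMO and lets GLI2 and other GLI activators turn on targets, among them *Gli1*, *Ptch1* and *Hhip*. In the forebrain SHH patterns the ventral telencephalon, where cortical interneurons are born, while GLI3 is needed for the dorsal telencephalon and the cortex. After birth, Hedgehog signalling is known in cortical astrocytes and in neural stem cells of the ventricular wall.

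The sequences below belong to the sites on which the comparisons turn. RefSeq promoters (GRCm38.p6, the mm10 assembly) were matched for 6 of the 9 genes, namely *Ptch1*, *Smo*, *Gli2*, *Gli3*, *Hhip* and *Sufu*. The first shown is the 250 bp upstream of the RefSeq TSS of *Gli3* (chr13:15463473-15463722, plus strand), where H3K27ac peaks stood higher in the non-CIN lists than in the CIN lists. The second is the matching 250 bp of *Ptch1* (chr13:63565736-63565985, minus strand), the centre of the broadest H3K27ac block of that gene. The third is the middle 300 bp (chr13:15462447-15462746, plus strand) of the stretch just upstream of *Gli3* that carried H3K27me3 in both CIN lists and in neither non-CIN list. Capitals mark CpG dinucleotides, of which the 3 sequences hold 34, 41 and 4.
Gli3 promoter: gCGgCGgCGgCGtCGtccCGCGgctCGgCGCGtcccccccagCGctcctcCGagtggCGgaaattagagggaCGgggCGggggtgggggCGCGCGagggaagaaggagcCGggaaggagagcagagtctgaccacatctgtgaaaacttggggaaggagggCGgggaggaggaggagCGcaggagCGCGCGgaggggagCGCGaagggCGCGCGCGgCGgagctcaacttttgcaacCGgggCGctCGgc
Ptch1 promoter: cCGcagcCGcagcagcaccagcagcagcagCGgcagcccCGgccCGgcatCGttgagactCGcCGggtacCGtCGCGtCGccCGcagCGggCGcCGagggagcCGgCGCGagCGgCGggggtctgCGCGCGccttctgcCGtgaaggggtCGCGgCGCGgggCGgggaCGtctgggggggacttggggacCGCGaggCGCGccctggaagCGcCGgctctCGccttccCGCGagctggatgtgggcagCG
Gli3 upstream H3K27me3: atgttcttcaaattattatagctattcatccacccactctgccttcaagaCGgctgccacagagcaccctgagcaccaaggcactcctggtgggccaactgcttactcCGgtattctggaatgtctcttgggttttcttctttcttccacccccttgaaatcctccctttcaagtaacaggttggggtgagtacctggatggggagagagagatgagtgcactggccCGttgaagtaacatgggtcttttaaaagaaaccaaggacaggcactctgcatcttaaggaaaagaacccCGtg

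All 6 RefSeq promoters (300 bp each, 250 bp before to 50 bp after the TSS) had a GC content above the median of 52.7% over 32851 such promoters. It was 76.3% at *Ptch1*, 73.7% at *Hhip*, 71.0% at *Gli3*, 67.7% at *Smo*, 67.3% at *Gli2* and 56.3% at *Sufu*. The promoters held 47 CpG at *Ptch1*, 39 at *Gli3*, 30 at *Hhip*, 28 at *Gli2*, 17 at *Smo* and 12 at *Sufu*, against a median of 7. *Sufu* was thus the least CpG-rich of the 6.

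The motif GACCACCCA, the sequence that GLI proteins bind, was searched on both strands of each window. It occurred 14 times, with 6 matches in *Gli2*, 3 in *Ptch1*, 1 each in *Gli1*, *Gli3*, *Hhip*, *Sufu* and *Boc*, and none in *Shh* or *Smo*. H3K27ac peaks of any list covered 4 of the 14, the 3 of *Ptch1* and the 1 of *Boc*. These 4 are shown with 10 bp on each side, on the strand of the motif, which is in capitals. The first lies at chr13:63566435-63566443 on the plus strand, the second at chr13:63569285-63569293 and the third at chr13:63573465-63573473 on the minus strand, and that of *Boc* at chr16:44552156-44552164 on the plus strand.
Ptch1 match 1: aaagtagagaGACCACCCAggtaggcaac
Ptch1 match 2: cctcagccctGACCACCCAagtcgagcag
Ptch1 match 3: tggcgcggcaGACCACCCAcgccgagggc
Boc match: tattgtccaaGACCACCCActggaaatag

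Match 1 of *Ptch1*, in an intron, lay under H3K27ac in all 4 lists and under H3K27me3 in none. Match 2, also intronic, lay under H3K27ac in 1 non-CIN list, and under H3K27me3 in both CIN lists and 1 non-CIN list. Match 3, in a 5′ untranslated exon 125 bp from the annotated gene start, lay under H3K27ac in all 4 lists. It lay under H3K27me3 in CIN replicate 1 and 1 non-CIN list. In CIN replicate 2 an H3K27me3 peak that began at chr13:63573472 covered only the edge of the match. The *Boc* match, in an intron, lay under H3K27ac in 1 CIN and both non-CIN lists. None of the 6 RefSeq promoters held the motif, which occurred in 0.253% of the 32851 RefSeq promoters of this length. A match is a match of letters only, and binding was not measured.

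Across the 9 genes, H3K27ac covered more bp in non-CINs than in CINs, and H3K27me3 more bp in CINs, at most of the genes that carried the mark. Of the 8 genes with an H3K27ac peak, 7 had more covered bp in the non-CIN list of both replicate numbers (*Ptch1*, *Smo*, *Gli1*, *Gli2*, *Gli3*, *Hhip* and *Boc*), a direction held by 29.2% of all 14672 genes with a peak. None of the 8 had more in the CIN list of both replicates, against 29.8% of all genes. *Sufu* was mixed and *Shh* had no H3K27ac peak.

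Without pairing by replicate number, the 2 non-CIN lists both exceeded the 2 CIN lists, with no overlap, at *Ptch1*, *Gli1*, *Gli2* and *Boc*, which is 4 of 8 members against 18.0% of all genes. The opposite separation, with both CIN lists higher, was seen at none of the 8, against 18.1% of all genes. Over the members with peaks in both lists of a replicate, the median log2 ratio of non-CIN to CIN covered bp was 0.24 in replicate 1 (7 genes) and 0.57 in replicate 2 (8 genes). Over all genes the same medians were -0.05 and 0.05, so the median of the members was above that of all genes in both replicates. The lowest member value in replicate 1, -0.33, was below it.

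For H3K27me3, 5 of the 8 genes with a peak had more covered bp in CINs in both replicates (*Ptch1*, *Gli1*, *Gli2*, *Gli3* and *Hhip*), against 16.7% of all 8941 genes with a peak. None had more in non-CINs in both replicates, against 25.4% of all genes. Of the 5, *Gli1* and *Hhip* kept the direction in every window and at every peak threshold tried, while *Ptch1*, *Gli2* and *Gli3* each lost it under at least 1 of them. The populations were separated without overlap only at *Gli1*, where both CIN lists were higher, against 7.34% of all genes, and at no member with both non-CIN lists higher, against 11.1%. The median log2 ratio of non-CIN to CIN covered bp was -0.38 in replicate 1 and -0.17 in replicate 2 (6 genes each), against 0.06 and 0.03 over all genes.

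Both directions held together, more H3K27ac in non-CINs and more H3K27me3 in CINs in both replicates, at 5 of the 7 members with peaks of both marks (*Ptch1*, *Gli1*, *Gli2*, *Gli3* and *Hhip*). This combination was found at 6.25% of the 6797 genes with both marks. The plot of covered bp for each gene shows that at *Gli3* and *Hhip*, for example, the replicates of 1 population lay about as far apart as the populations or further. In the 18 exact permutation tests over the 9 genes and both marks, 5 reached the smallest possible p of 0.333, and the lowest p adjusted over the 18 by the Benjamini-Hochberg method was 0.923.

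**Figure D1:**
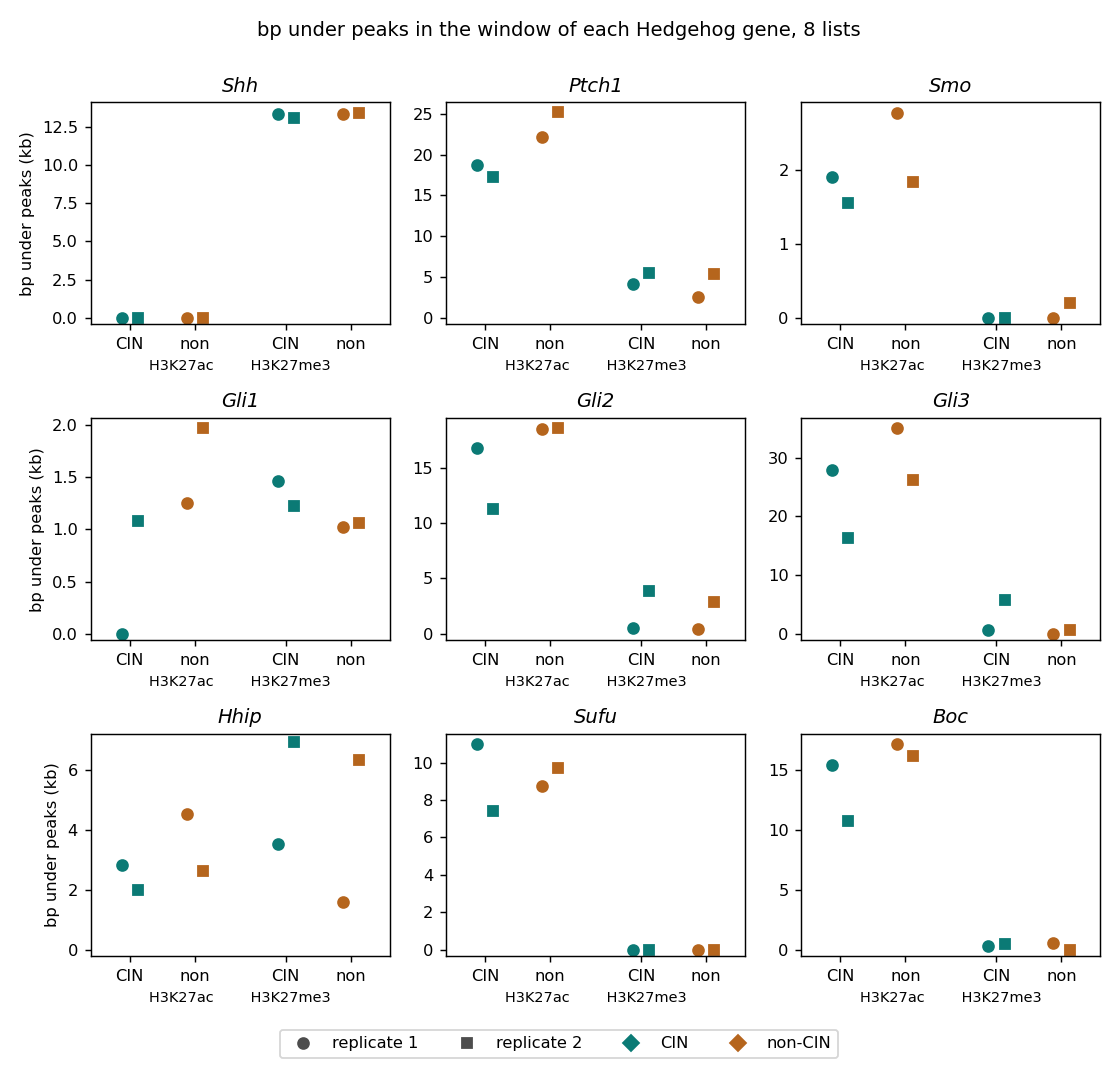
Covered length (kb under peaks, y axis) in the window of each of the 9 genes, for H3K27ac and H3K27me3 in CINs (green) and non-CINs (brown, "non" on the axis), with circles for replicate 1 and squares for replicate 2 and a separate y axis for each gene. Both non-CIN H3K27ac points lie above both CIN points at *Ptch1*, *Gli1*, *Gli2* and *Boc*, while *Shh* has no H3K27ac and 13058 to 13412 bp of H3K27me3 in every list.

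**Figure D2:**
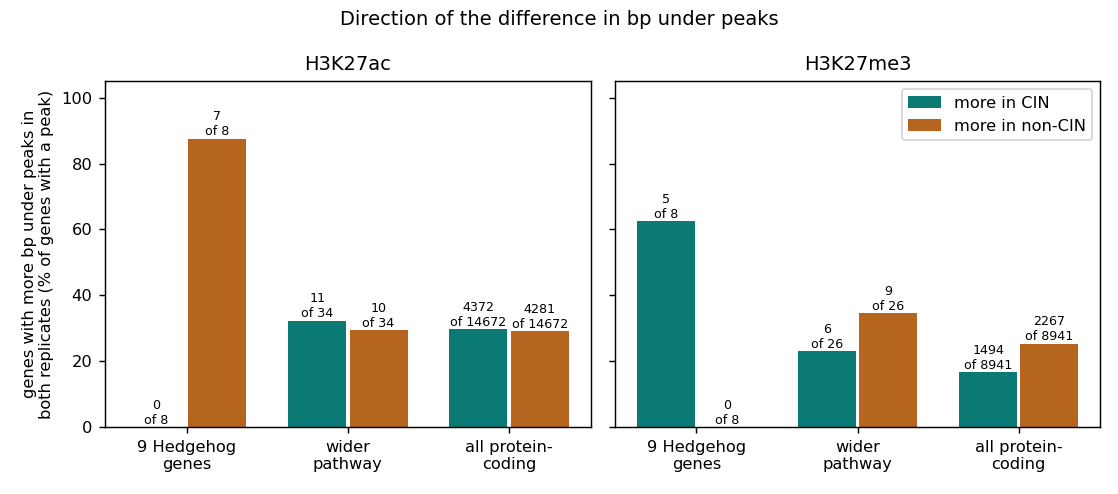
Percent of genes with a peak (y axis) that had more covered bp in CINs (green) or in non-CINs (brown) in both replicates, for the 9 Hedgehog genes, 40 further pathway genes and all protein-coding genes, with the counts above the bars. For H3K27ac, 7 of 8 members had more in non-CINs, while the 34 further genes were split into 11 with more in CINs, 10 with more in non-CINs and 13 mixed, the mixed genes not being drawn.

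Markers of other cells moved with this comparison. H3K27ac covered more bp in CINs in both replicates at 7 of the 7 CIN markers with a peak (*Lhx6* had none listed), with a summed length of 59302 and 47668 bp in CINs and of 434 and 652 bp in non-CINs. Of 6 astrocyte and radial glia markers, 5 had more in non-CINs, and their summed length was 56709 bp and 52388 bp in the CIN lists and 80463 bp and 85992 bp in the non-CIN lists. At the endothelium and pericyte markers, 3 of the 3 with a peak had more in non-CINs (16154 and 11279 bp in CINs, 20304 and 17510 bp in non-CINs), with none listed at *Cldn5* or *Kdr*.

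At the microglia markers, 2 of the 3 with a peak had more in non-CINs (12878 and 11572 bp against 18169 and 15328 bp), with none listed at *Aif1* or *C1qa*. The 5 oligodendrocyte lineage markers were divided in H3K27ac, 1 with more in CINs and 2 with more in non-CINs (16668 and 19056 bp against 18458 and 18161 bp). So were the 4 glutamatergic neuron markers with a peak, 1 and 2 respectively (8182 and 3823 bp against 5659 and 6586 bp, none listed at *Neurod2* or *Slc17a7*). The astrocyte and radial glia, microglia, and endothelium and pericyte lists thus moved with the Hedgehog genes in H3K27ac, with summed lengths higher in non-CINs in both replicates, and their part in the result was not tested.

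In H3K27me3, 4 of the 6 glutamatergic neuron markers had more covered length in CINs and none had more in non-CINs (55403 and 61411 bp against 52067 and 53869 bp). Of the 5 oligodendrocyte lineage markers, 3 (*Olig1*, *Olig2* and *Sox10*) had more in CINs and 1, *Pdgfra*, had more in non-CINs (25125 and 26737 bp against 22837 and 23335 bp). Of the 8 CIN markers, 6 had more in non-CINs and none in CINs (86265 and 94464 bp against 93699 and 97122 bp). Each of the other lists had 1 marker with the same direction in both replicates, *Gfap* with more in CINs (4 with a peak in the astrocyte and radial glia list, 736 and 3436 bp against 1895 and 1546 bp), *Cx3cr1* with more in non-CINs (2 in the microglia list, 1213 and 1920 bp against 1806 and 2598 bp) and *Cldn5* with more in non-CINs (3 in the endothelium and pericyte list, 14715 and 16623 bp against 14000 and 17351 bp). Where H3K27me3 of a Hedgehog gene was higher in CINs, the glutamatergic neuron and oligodendrocyte lineage lists moved with it, and their part in the result was not tested.

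*Shh* (chr5:28456815-28467256, minus strand) encodes the ligand Sonic hedgehog. It carried no H3K27ac peak in any of the 4 lists, nor within 50 kb on either side. H3K27me3 covered 13344 and 13058 bp of its window in CINs, compared with 13344 bp and 13412 bp in non-CINs, which is 84.6 to 86.9% of the window. The 4 lists agreed closely, and the populations overlapped. A single block, chr5:28455457-28469872, spanned the gene and its promoter and had peaks in all 4 lists, at percentiles 98.8 and 98.5 in CINs, compared with 98.6 and 98.1 in non-CINs. These were the strongest H3K27me3 peaks of the 9 genes. H3K27me3 was found in all 4 lists at 5 of the 9 members (*Shh*, *Ptch1*, *Gli1*, *Gli2* and *Hhip*), against 21.1% of all genes.

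*Ptch1* (chr13:63508328-63573598, minus strand) encodes the Hedgehog receptor that holds SMO inactive and is itself a target of the pathway. H3K27ac covered 18749 and 17288 bp of its window in CINs, compared with 22174 bp and 25269 bp in non-CINs (18018.5 ± 1033 against 23721.5 ± 2188 bp, SD, n = 2 each). Both non-CIN lists were above both CIN lists, by 1.18-fold in replicate 1 and 1.46-fold in replicate 2. The strongest peak stood at percentiles 86.5 and 91.6 in CINs, compared with 92.2 and 93.0 in non-CINs, among the higher peaks of the list in both populations.

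The acetylation of *Ptch1* lay in 9 blocks, 5 of them in all 4 lists. The block around the RefSeq TSS, chr13:63561784-63569741, had 6367 and 5877 bp under peaks in CINs, compared with 7165 bp and 7958 bp in non-CINs. The block at the annotated gene start further upstream, chr13:63570844-63573972, had 1807 bp and 1550 bp in the CIN lists and 2043 bp and 2468 bp in the non-CIN lists. Both of these blocks, and the block of intron 2 at chr13:63551446-63558728 (4798 and 5021 against 6735 and 6670 bp), were longer in both non-CIN lists than in either CIN list.

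H3K27me3 at *Ptch1* covered 4205 bp and 5444 bp in the CIN lists and 2617 bp and 5432 bp in the non-CIN lists, so the replicates differed more than the populations, and in replicate 2 the populations were only 12 bp apart. Nearly all of it was at the upstream gene start. The main block, chr13:63568722-63574871, had 3988 bp and 4940 bp in the CIN lists and 1337 bp and 3793 bp in the non-CIN lists, while a block further upstream, chr13:63575632-63577490, had 217 bp and 504 bp in the CIN lists and 1078 bp and 1639 bp in the non-CIN lists. The blocks thus leaned to opposite populations, and with 50 kb flanks on both sides of the gene the mean difference turned to -3873.5 bp (CIN minus non-CIN) from 800 bp. Over the RefSeq promoter no H3K27me3 peak was found in any list, while H3K27ac peaks reached percentiles 82.7 and 91.6 in CINs, compared with 90.0 and 88.9 in non-CINs.

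**Figure D3:**
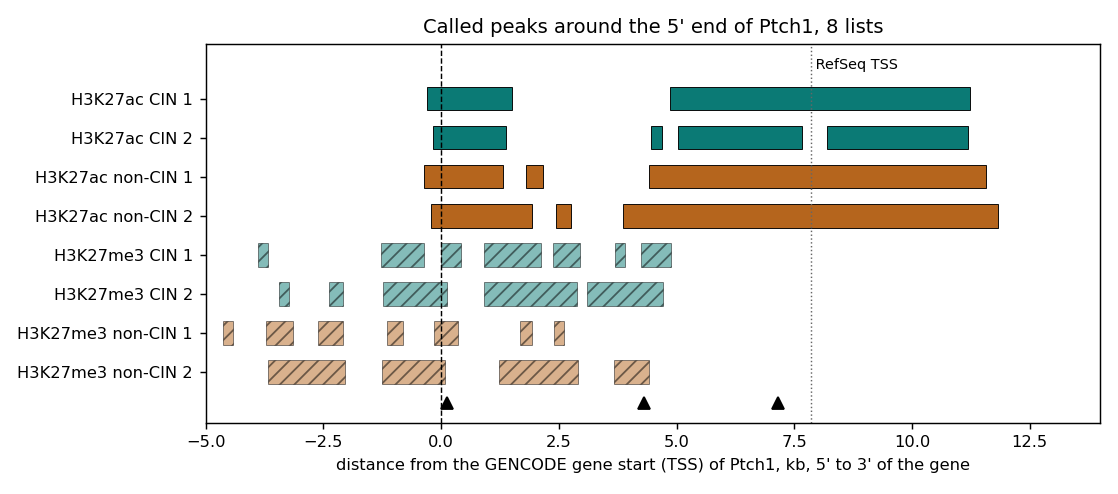
Called peaks around the 5′ end of *Ptch1* in the 8 lists (rows, CIN green and non-CIN brown, H3K27me3 hatched), with distance in kb from the annotated gene start on the x axis, the gene start as a dashed line, the RefSeq TSS as a dotted line and triangles at the 3 GLI motif matches. H3K27ac bars stand at or beside both starts in all 4 lists, while H3K27me3 bars cluster around the upstream start.

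*Hhip* (chr8:79965851-80058006, minus strand) encodes a membrane protein that binds and sequesters Hedgehog ligands. H3K27ac covered 2817 bp and 1999 bp in the CIN lists and 4550 bp and 2644 bp in the non-CIN lists (2408 ± 578 against 3597 ± 1348 bp, SD, n = 2 each). Non-CINs were higher within each replicate, by 1.62-fold and 1.32-fold, but the populations overlapped. H3K27me3 covered 3545 bp and 6941 bp in the CIN lists and 1578 bp and 6350 bp in the non-CIN lists, higher in CINs within each replicate, while the replicates lay further apart than the populations.

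Both marks of *Hhip* met at its start. The H3K27ac block chr8:80053915-80058706 had 2294 bp and 1461 bp in the CIN lists and 3615 bp and 2178 bp in the non-CIN lists. The H3K27me3 block chr8:80051129-80058021 had 2998 bp and 6291 bp in the CIN lists and 788 bp and 5303 bp in the non-CIN lists. In CINs 1433 and 1258 bp of the window lay under peaks of both marks, and in non-CINs 559 and 1447 bp, so no order between the populations was seen.

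*Boc* (chr16:44485049-44558897, minus strand) encodes a cell-surface co-receptor of SHH. H3K27ac covered 15352 bp and 10697 bp in the CIN lists and 17104 bp and 16089 bp in the non-CIN lists (13024.5 ± 3292 against 16596.5 ± 718 bp, SD, n = 2 each). Both non-CIN lists exceeded both CIN lists, by 1.11-fold and 1.50-fold within replicates. The acetylation was spread over 16 blocks, 9 of them in all 4 lists and most of them in introns 1 and 3. Within 5 kb of the TSS alone *Boc* was no longer higher in non-CINs in both replicates, with a mean difference (CIN minus non-CIN) of -14.5 bp against -3572 bp over the window.

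These blocks did not all lean the same way. The block of intron 1 at chr16:44524352-44525527 had 220 and 278 bp under peaks in CINs, compared with 928 bp and 806 bp in non-CINs. That of intron 3 at chr16:44509023-44511254 had 2202 bp and 694 bp in the CIN lists and 956 bp and 501 bp in the non-CIN lists, longer in CINs within both replicates. H3K27me3 was sparse, with 330 bp and 447 bp in the CIN lists and 526 bp and 0 bp in the non-CIN lists, and overlapped between the populations.

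*Smo* (chr6:29735503-29761365, plus strand) encodes the seven-pass membrane protein that carries the signal into the cell. H3K27ac covered 1911 bp and 1562 bp in the CIN lists and 2784 bp and 1850 bp in the non-CIN lists (1736.5 ± 247 against 2317 ± 660 bp, SD, n = 2 each). Within replicates non-CINs were 1.46-fold and 1.18-fold higher, and the populations overlapped. All H3K27ac that was called in CINs lay in 1 block at the promoter, chr6:29734908-29737202, which was shared by all 4 lists. H3K27me3 was absent from 3 lists and covered 200 bp in the second non-CIN list.

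*Sufu* (chr19:46396896-46488804, plus strand) encodes the cytoplasmic inhibitor that binds GLI proteins. H3K27ac covered 10978 bp and 7410 bp in the CIN lists and 8756 bp and 9715 bp in the non-CIN lists (9194 ± 2523 against 9235.5 ± 678 bp, SD, n = 2 each), with CINs higher in replicate 1 and non-CINs higher in replicate 2. No H3K27me3 peak was found in any list. *Sufu* was thus the member with H3K27ac in both populations and no direction between them.

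Single blocks of *Sufu* did separate, in both directions. The block of intron 3 at chr19:46446237-46448000 had 1764 bp and 1444 bp in the CIN lists and 899 bp and 1013 bp in the non-CIN lists, at percentiles 90.4 and 78.1 against 45.1 and 41.1, so both CIN lists were higher by both measures. The block of intron 2 at chr19:46421989-46423191 had 1203 bp and 704 bp in the CIN lists and 200 bp and 0 bp in the non-CIN lists. Another block of intron 3, chr19:46443433-46444356, separated the other way, with 356 bp and 361 bp in the CIN lists and 868 bp and 764 bp in the non-CIN lists, at percentiles 4.71 and 21.4 against 48.7 and 41.5. The block of intron 1 at chr19:46399812-46400509 was listed only in non-CINs, with 368 bp and 522 bp. The block at the start, chr19:46394889-46398132, extended into *Actr1a*, whose share of it cannot be told apart here.

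*Gli1* (chr10:127329882-127341974, minus strand) encodes a GLI activator that is transcribed in response to the signal. H3K27ac covered 0 bp and 1082 bp in the CIN lists and 1254 bp and 1967 bp in the non-CIN lists, so both non-CIN lists were higher (541 ± 765 against 1610.5 ± 504 bp, SD, n = 2 each). H3K27me3 covered 1465 bp and 1228 bp in the CIN lists and 1025 bp and 1061 bp in the non-CIN lists (1346.5 ± 168 against 1043 ± 25.5 bp, SD, n = 2 each), with both CIN lists higher. *Gli1* was the only one of the 9 genes at which both marks separated the populations without overlap, and in opposite directions.

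Most of both marks of *Gli1* lay in the same 5′ part of the gene, downstream of the promoter, where no peak of either mark was listed. The H3K27ac block was chr10:127339071-127341361, and the H3K27me3 block chr10:127339699-127341417 held 1115 bp and 1179 bp in the CIN lists and 619 bp and 1061 bp in the non-CIN lists. The H3K27me3 peak stood at percentiles 63.0 and 95.4 in CINs, compared with 45.4 and 67.0 in non-CINs, an order that held only within replicates.

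*Gli2* (chr1:118834132-119053619, minus strand) encodes the main activator of the pathway. H3K27ac covered 16804 bp and 11287 bp in the CIN lists and 18495 bp and 18559 bp in the non-CIN lists (14045.5 ± 3901 against 18527 ± 45.3 bp, SD, n = 2 each). Both non-CIN lists were higher, by 1.10-fold and 1.64-fold within replicates. The first of these was small beside the distance between the CIN replicates.

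The strongest H3K27ac peak of *Gli2* stood in intron 1, chr1:119032619-119036262, with 1565 bp and 1839 bp in the CIN lists and 2450 bp and 3029 bp in the non-CIN lists, at percentiles 93.8 and 85.9 against 94.8 and 95.3. The block at its start, chr1:119047484-119054955, was of like length in all lists (6458 and 5947 bp against 6432 and 6723 bp). H3K27me3 covered 522 bp and 3906 bp in the CIN lists and 443 bp and 2906 bp in the non-CIN lists, all of it in intron 1 near the start, with a far wider gap between replicates than between populations.

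*Gli3* (chr13:15463235-15730026, plus strand) encodes the GLI protein that acts mainly as a repressor. H3K27ac covered 27975 bp and 16269 bp in the CIN lists and 34996 bp and 26159 bp in the non-CIN lists (22122 ± 8277 against 30577.5 ± 6249 bp, SD, n = 2 each), the most covered bp of the 9 genes in every list but CIN replicate 2, where *Ptch1* had more. Non-CINs were higher within each replicate, by 1.25-fold and 1.61-fold, but the populations overlapped. The H3K27ac was split into 44 blocks, of which 10 were in all 4 lists and 22 in a single list, 15 of these in a non-CIN list (13 of replicate 1 and 2 of replicate 2) and 7 in a CIN list, all of replicate 1.

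H3K27me3 at *Gli3* covered 598 bp and 5709 bp in the CIN lists and 0 bp and 611 bp in the non-CIN lists (3153.5 ± 3614 against 305.5 ± 432 bp, SD, n = 2 each). In CINs both lists shared 574 bp upstream of the start, chr13:15462310-15462883, at percentiles 59.9 and 81.1, with no peak in either non-CIN list. The stretch overlaps the annotated non-coding gene *Gm6556*, and H3K27ac peaks overlapped it in all 4 H3K27ac lists. *Gli3* was the 1 member with a CIN-only H3K27me3 region, against 1.38% of all genes, and no member had a non-CIN-only one, against 2.09%. It was also the 1 member of 9 with H3K27me3 at its promoter in both CIN lists and neither non-CIN list, against 0.365% of all genes. In CIN replicate 1 both calls rest on a single peak of 598 bp, the only H3K27me3 peak of *Gli3* in that list. At −log10 *q* of at least 4 *Gli3* no longer had more H3K27me3 in CINs in both replicates. Without that peak neither call holds, and the calls were not tried at that threshold. The middle 300 bp printed above hold 1 match to CCACCCA, the core of the GLI motif, which 9.30% of RefSeq promoters of the same length also hold.

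**Figure D4:**
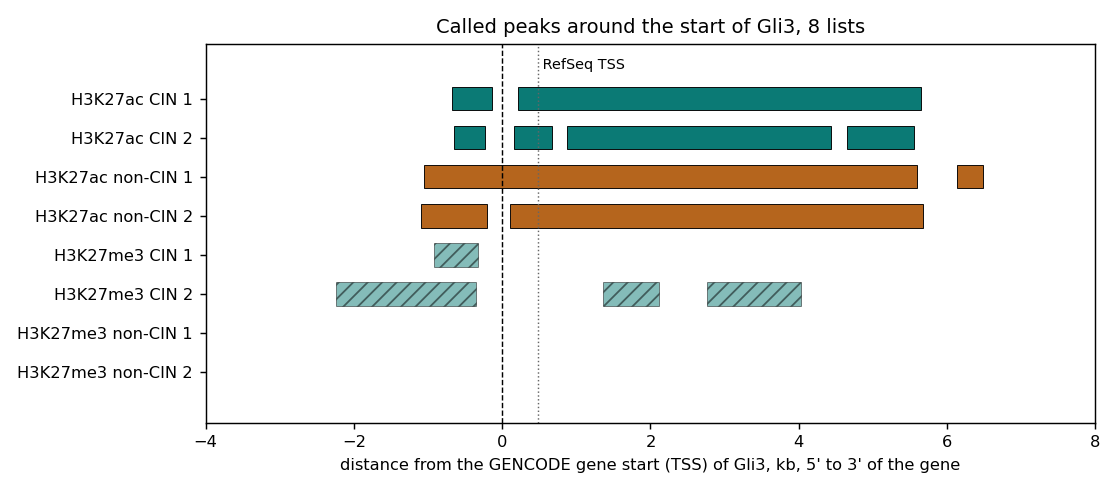
Called peaks around the start of *Gli3* in the 8 lists (rows, CIN green and non-CIN brown, H3K27me3 hatched), with distance in kb from the annotated gene start on the x axis, the gene start as a dashed line and the RefSeq TSS as a dotted line. H3K27ac bars lie on both sides of the start in all 4 lists. H3K27me3 bars appear in both CIN lists, with a single bar in replicate 1, and in neither non-CIN list.

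At promoters, taken from 1 kb upstream to 100 bp downstream of the annotated TSS, the H3K27ac peaks of the members ranked higher in the non-CIN lists. A promoter peak was called in all 4 lists at 7 members, and 5 of these (*Ptch1*, *Smo*, *Gli2*, *Gli3* and *Boc*) stood at a higher percentile in non-CINs in both replicates, against 25.2% of 9247 genes with such a peak. None stood higher in CINs in both replicates, against 35.1% of these genes. *Shh* and *Gli1* had no promoter H3K27ac peak.

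The widest gap was at *Gli3*, with percentiles of 49.9 and 45.0 in CINs, compared with 77.5 and 83.2 in non-CINs. The promoter peak of *Smo* stood at 78.1 and 67.4 in CINs, compared with 86.7 and 84.1 in non-CINs. That of *Gli2* stood at 76.0 and 68.4 against 85.2 and 76.8. At *Gli3*, *Smo* and *Gli2* both non-CIN lists were above both CIN lists.

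The promoter peak of *Ptch1* at the annotated gene start stood at 69.1 and 58.5 in CINs, compared with 75.5 and 70.7 in non-CINs, again with no overlap. Over the RefSeq promoter of *Ptch1* this did not hold. There the percentiles were 82.7 and 91.6 in CINs against 90.0 and 88.9 in non-CINs, and the replicates disagreed on the direction. The promoter peak of *Boc* stood at 83.1 and 80.4 against 94.9 and 82.7, where the higher CIN list exceeded the lower non-CIN list. At *Hhip* (47.6 and 44.8 against 71.8 and 40.0) and *Sufu* (89.4 and 98.3 against 96.2 and 86.2) the replicates disagreed on the direction. The *Sufu* values belong to a peak that reaches into the promoter window from further upstream and ends before the gene start. Over the RefSeq promoter of *Sufu* the peaks stood at 83.5 and 69.2 in CINs. In non-CINs none was listed there in replicate 1, and that of replicate 2 stood at 81.2.

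**Figure D5:**
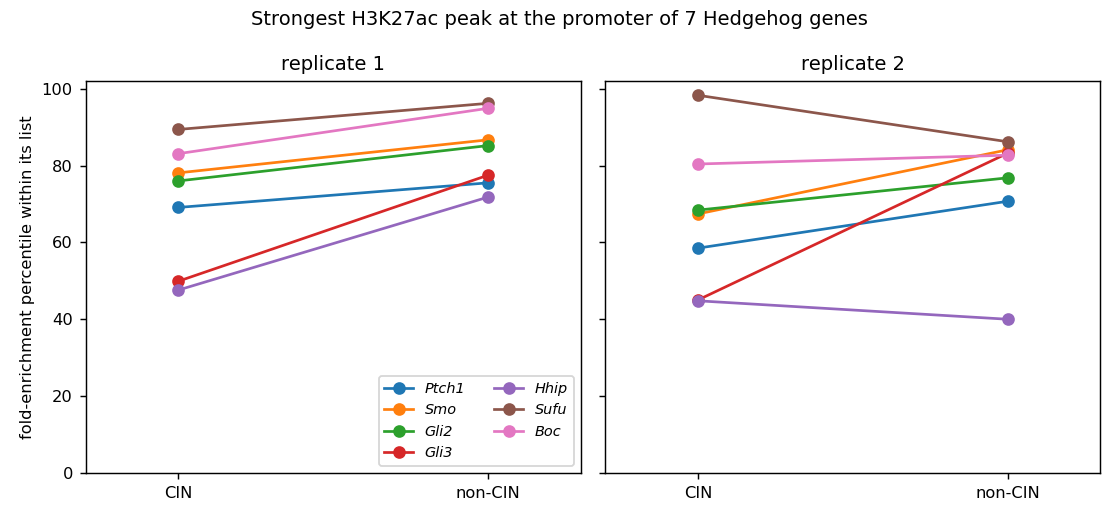
Fold-enrichment percentile within its own list (y axis) of the strongest H3K27ac peak at the promoter of 7 Hedgehog genes, in CINs and non-CINs, for replicate 1 (left) and replicate 2 (right), with a line for each gene. Lines rise towards non-CINs for all 7 genes in replicate 1 and for 5 in replicate 2, most steeply for *Gli3*, while *Hhip* and *Sufu* fall in replicate 2.

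H3K27ac was called in all 4 lists at 7 of the 9 members, against 56.8% of all genes. The member windows held 103 H3K27ac blocks, peaks of any list joined where 500 bp or less apart, and 37 of these had a peak in all 4 lists. Of the 37, covered bp was higher in non-CINs in both replicates in 19 and in CINs in 3, while over all 26683 such blocks of the genome the shares were 36.9% and 27.4%. By percentile, 21 of the 37 were higher in non-CINs and 4 in CINs, against 36.9% and 28.7% of all such blocks. The blocks of 1 gene are neighbours and are not independent of each other.

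A region was called CIN-only or non-CIN-only where a merged peak of 1 population met no peak of the other in the same replicate, and did so at the same place in both replicates. Non-CIN-only H3K27ac regions were found at 4 members (*Ptch1*, *Gli3*, *Sufu* and *Boc*), against 6.85% of all genes, whose windows are shorter. These regions were short and weak. The count of 4 fell to 1 with the 30000 strongest peaks of each list (*Boc*) and to 1 within 5 kb of the TSS (*Sufu*). Without replicate 2 it was 8. The region of *Ptch1*, chr13:63514654-63514965 (312 bp), lies in intron 20 and stood at percentiles 30.9 and 40.3.

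The region of *Gli3*, chr13:15533525-15533749 (225 bp, intron 2), stood at percentiles 7.28 and 20.6. That of *Sufu*, chr19:46400142-46400333 (192 bp, intron 1), stood at 17.6 and 33.4, and that of *Boc*, chr16:44536937-44537123 (187 bp, intron 1), at 27.9 and 10.7. None of the 4 reached the median fold enrichment of its list. The sequence of the *Gli3* region is shown because it is the non-CIN-only H3K27ac region of the gene with the widest gap in promoter percentile. The capitals mark its 1 match to CTTTGT, the core recognised by SOX proteins, which 26.7% of 34949 non-CIN H3K27ac stretches hold in their middle 300 bp.
Gli3 intron 2: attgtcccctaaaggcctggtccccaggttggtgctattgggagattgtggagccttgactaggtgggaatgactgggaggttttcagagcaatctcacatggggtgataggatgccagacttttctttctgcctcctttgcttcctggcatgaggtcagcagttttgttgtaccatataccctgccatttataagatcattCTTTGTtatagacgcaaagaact

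A CIN-only H3K27ac region was found at 1 member, *Gli2*, against 6.80% of all genes. It was an overlap of 6 bp (chr1:118990887-118990892, intron 2) between a pair of 200-bp peaks at percentiles 14.4 and 16.9, and no such region remained when at least 100 bp was asked for.

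In the wider pathway the directions were divided. Of 40 further genes of Hedgehog signalling, 34 had an H3K27ac peak, with 11 higher in CINs in both replicates, 10 higher in non-CINs and 13 mixed, beside 29.8% and 29.2% of all genes. For H3K27me3, 26 had a peak, with 6 higher in CINs, 9 higher in non-CINs and 11 mixed, beside 16.7% and 25.4% of all genes. By role, H3K27ac was higher in CINs at 3 of the 4 genes of ligand production and release with a peak and higher in non-CINs at none. It was divided 4 to 3 among 12 genes of the cilium and signal relay, 2 to 2 among 8 regulators of GLI proteins and 1 to 2 among 4 further receptors and co-receptors, CINs first in each case. Among 6 targets and ventral regulators with a peak, 1 was higher in CINs and 3 in non-CINs.

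A CIN-only H3K27ac region was held by 3 of the 7 ligand and ligand-handling genes of that list, against 6.80% of all genes. They were the 3 genes with more H3K27ac in CINs (*Hhat*, *Disp1* and *Scube2*), so the counts rest on the same peaks. The regions were short, 230 to 408 bp, and the lower percentile of the replicates was 17.3 and 7.44 at the 2 regions of *Hhat*, 7.25 and 19.1 at the 2 of *Disp1* and 45.6 at the 1 of *Scube2*. *Hhat*, whose product attaches palmitate to the ligand, had 3739 bp and 2041 bp in the CIN lists and 1478 bp and 703 bp in the non-CIN lists, and a promoter H3K27ac peak in both CIN lists and neither non-CIN list. *Disp1*, which releases the lipid-modified ligand, had 2083 and 2805 bp against 0 and 1833 bp. *Scube2*, a secreted carrier of the ligand, had 3069 and 1195 bp against 844 and 0 bp. In all 3 genes both CIN lists were above both non-CIN lists. The ligand genes *Ihh* and *Dhh*, like *Shh*, had no H3K27ac peak in any list, and had H3K27me3 over 8913 to 9470 bp and 6001 to 6631 bp.

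Among regulators of GLI proteins, *Btrc*, an F-box protein of a ubiquitin ligase, had 8620 and 4333 bp of H3K27ac in CINs, compared with 2243 bp and 1799 bp in non-CINs, with 2 CIN-only regions of 755 and 808 bp. *Gsk3b*, a kinase that marks GLI proteins for processing, held 1 CIN-only and 4 non-CIN-only regions and was mixed in covered bp (9906 and 8382 against 8614 and 11941 bp). *Mosmo*, an attenuator of the signal at the cell surface, held 1 CIN-only region of 148 bp and was also mixed (4060 and 2437 against 2378 and 2500 bp). Only *Btrc* of these 3 separated the populations.

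Among the targets, *Bcl2*, a survival factor, had 10471 and 7935 bp of H3K27ac in CINs, compared with 17016 bp and 15188 bp in non-CINs, and held 3 non-CIN-only regions. *Ccnd1*, the cyclin D1 gene, had 2364 and 2469 bp of H3K27ac in CINs, compared with 4562 bp and 4295 bp in non-CINs. Its H3K27me3 covered 5006 bp and 5297 bp in the CIN lists and 0 bp and 404 bp in the non-CIN lists, with a promoter H3K27me3 peak in both CIN lists and neither non-CIN list. *Ccnd1* therefore had the same pairing of directions as the 5 members above, with no overlap in either mark. *Mycn*, named after its values were seen, went the other way, with 5301 and 4428 bp of H3K27ac in CINs, compared with 2799 bp and 2497 bp in non-CINs, and a non-CIN-only H3K27me3 region of 466 bp.

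The protein-coding gene most like each member was sought over the 8 values of percent of window covered, among genes with a window length within 2-fold. The distance is Euclidean, in percentage points. It was smallest at *Smo* (*Cnmd*, 0.630), *Sufu* (*Nedd4*, 0.961), *Gli2* (*Fhad1*, 1.77), *Gli3* (*Tspan9*, 2.09), *Boc* (*Tpcn1*, 2.22), *Shh* (*Prdm8*, 2.79) and *Hhip* (*Sucla2*, 3.15). It was larger at *Gli1* (*Grtp1*, 6.64) and largest at *Ptch1* (*Cnn3*, 12.3), the smallest distance among the 5957 genes compared with it.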

How the data were processed

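Histone ChIP-seq was performed on CINs and non-CINs sorted from P2 *Gad67-GFP* cortex, with 2 replicates for each of 2 marks. The authors mapped the reads with BWA *mem* to mm10, removed poorly mapped ones using samtools, and ran MACS2 in broad mode on every replicate separately, its own input being the control, without a fragment model or local lambda. Per the submitters' processing notes, the aligner was BWA 0.7.15. For each peak the deposited lists give a score, which the authors' peak caller derived from −log10 *q*, a fold enrichment (the ratio of ChIP to input signal), and −log10 *p* and −log10 *q* values. None of these is a read count, so depth and counting intervals cannot be given. Fold enrichment was used only as a percentile within its list.

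Genes came from the GENCODE vM21 basic annotation. Motif features came from the full annotation, and sequences from GRCm38.p6 and RefSeq. The 9 genes, the 40 further pathway genes and the cell type markers were chosen with earlier results of these data known. The replicate number was the block, as the study compared populations within each replicate. Same-numbered lists deviated together from their group means (correlation 0.560 over 14672 genes for H3K27ac and 0.918 over 8941 for H3K27me3), and the numbers come from the sample labels, which do not say what a number shares. Peaks 500 bp or less apart were merged for the population-only regions and the blocks.

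All 9 members were named. Further pathway genes were named where they held a CIN-only or non-CIN-only H3K27ac region, or a promoter peak in both lists of 1 population and neither of the other. The text names *Ihh*, *Dhh* and *Mycn* outside this rule, after their values were seen.

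Python 3.11.15, NumPy 2.4.6, pandas 2.3.3 and matplotlib 3.10.9 were used. On simulated data, 40 of 40 interval operations equalled those of bedtools 2.31.1 and 200 of 200 planted regions were recovered. The alternatives were no or a crossed replicate block, single replicates, −log10 *q* of at least 4, the 30000 strongest peaks of each list, other merging, overlap and windows, and covered bp as a share of the list. Differential calling on coverage was not done, since it needs reads.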

Additional observations from a re-analysis of the deposited data

How the results depend on the processing

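The count of members with more H3K27ac in non-CINs (7) stayed at 7 or 8 under every alternative but 2, though within 5 kb of the TSS *Boc* left the 7 (-14.5 bp, CIN minus non-CIN, against -3572) and *Sufu* entered. It was 4 with no replicate block and 4 with the block crossed (*Ptch1*, *Gli1*, *Gli2* and *Boc* each time), and ranged from 7 to 8 when 1 replicate was left out. Members with more H3K27ac in CINs numbered 0, with a range of 0 to 1 when 1 replicate was left out (*Sufu* without replicate 2). Members with more H3K27me3 in CINs numbered 5, 1 with no replicate block and 1 with it crossed (*Gli1*), and 5 to 6 with 1 replicate left out. Its members changed where the count hardly did. *Gli3* was lost in the gene body and at −log10 *q* of at least 4, where *Shh* entered, *Gli2* was lost with peaks merged at 500 bp, *Ptch1* and *Gli2* were lost with 50 kb flanks, where *Smo* and *Boc* entered, *Boc* entered within 5 kb of the TSS and *Shh* as a share of all bp in the list. Members with more H3K27me3 in non-CINs numbered 0, 1 with the block crossed (*Shh*), 1 with 50 kb flanks (*Ptch1*), and 1 to 2 with 1 replicate left out (*Boc* without replicate 2, *Shh* and *Smo* without replicate 1). The replicate block changed no other count. Members with a CIN-only H3K27ac region numbered 1 (*Gli2*, but *Boc* at −log10 *q* of at least 4), 0 with the 30000 strongest peaks, 0 within 5 kb of the TSS, 2 at 50% reciprocal overlap (*Sufu* and *Boc*), 3 to 5 with 1 replicate left out, and 0 for regions of at least 100 bp, a setting chosen after seeing the data. Members with a non-CIN-only region numbered 4, 1 with the 30000 strongest peaks, 1 within 5 kb of the TSS, and up to 8 without replicate 2. The causes were not tested. Of 128 values for single members, 9 reversed. These differences are covered bp, CIN minus non-CIN. For *Sufu* H3K27ac (-41.5 bp) they were 2222 without replicate 2 and 68 in the gene body. For H3K27me3 they were 641 at −log10 *q* of at least 4 and 23.5 with the 30000 strongest peaks at *Shh* (-177), -3873.5 with 50 kb flanks at *Ptch1* (800), 518 with 50 kb flanks at *Smo* (-100), and -196 without replicate 2, -98 at −log10 *q* of at least 4 and -112 in the gene body at *Boc* (125.5). Without replicate 1 the differences kept their sign at *Sufu* (-2305) and *Boc* (447). Members named under every setting numbered 3 for H3K27ac in non-CINs and 1 for H3K27me3 in CINs. The lists were cut at the authors' threshold, so weak enrichment under it was not seen.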
